A study of Mus musculus with 13 samples.

Results

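The joins described here connected an I-SceI break in the switch region S gamma 1 of the mouse immunoglobulin heavy chain locus (IgH) to the region of a second I-SceI cassette at S mu, with the prey read on the minus strand. They were the junctions of the 6 IgH libraries that lay on chromosome 12 from 114654493 to 114674493 (mm9), 10 kb on either side of the partner peak at 114664493. This gave 1073 joins, of 2586 on both strands of the window, of 6878 in the 6 libraries and of 16455 in the 13 libraries of the series. They were chosen by the measured position and strand of each junction, so the place of the window and the strand itself are descriptions and not results. The lowest join lay at 114654693 and the nearest one outside the lower limit at 114654403, with 3 joins inside and 9 outside within 1000 bp of that limit. The highest lay at 114672598, and the nearest one above the upper limit at 114675951.

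The study compared how often distant breaks of one chromosome were joined in different cell types. The first group was activated splenic B cells kept with anti-CD40 and IL-4, and the second was activated splenic T cells kept with ConcanavalinA and IL-2. Both carried the genotype written as IgH2-28xI, and each had 3 libraries, numbered 19, 21 and 23. Genomic DNA was sonicated, amplified by adapter PCR and read on a MiSeq. The sources used here do not give how I-SceI was supplied to these cells, or the strain and age of the mice. Nothing in the labels says that the libraries came from separate animals or cultures, so the p-values measure only the spread between these libraries.

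I-SceI is a nuclease of yeast with a long recognition site that is absent from the mouse genome, so its main cuts are where a cassette was placed. In activated B cells the enzyme AID deaminates cytosines in switch regions, and the breaks that follow in S mu and in a downstream switch region are joined by end joining, which exchanges the antibody class. AGCT is a preferred AID target and is repeated through the core of S mu. In high-throughput genome-wide translocation sequencing (HTGTS), a primer beside one fixed break, the bait, recovers whatever that end was joined to, the prey.

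The bait peak lay at 114577038, 87.45 kb below the partner peak, and 3074 of its nearby junctions were on the plus strand against 478 on the minus strand. A minus-strand prey in the partner window reads from the S mu break back down toward the bait. If both ends came from one chromosome, such a join would invert the stretch between the breaks, while a plus-strand join would delete it. Apart from the trans S mu joins described below, the reads do not tell whether the ends came from one chromosome or from both copies.

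The deposited alignments showed the layout of the cassette allele. Reads passed from the flank, whose last base was 114661018, straight into the cassette, which the authors' files number from 114664473. From there 21 cassette bases led to the first I-SceI cut at 114664493, 22 more bases led to the second cut at 114664516, and a loxP site started at 114664586. A step of 1 base on the allele at the flank edge is therefore a step of more than 3 kb in the file's numbers, and the distances from the cut given here were measured along the allele. Window limits are set in the file's numbers. Along the allele, the lower limit of each window thus lies more than 3 kb closer to the cut than its stated width. The stretch of mm9 between the flank and the cassette holds the S mu core, and the only minus-strand joins in it were those that the authors labelled as trans S mu, a word that the labels do not explain. By this layout the cassette allele lacks that stretch, so the preys of those joins lay in sequence that it does not hold.

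Reference sequences show the places that set these joins apart, each written 5′ to 3′ on mm9 as the prey was read, with AGCT in capitals. They are the aligned mm9 bases in the deposited files. The first is the last 100 bases of the flank that faces the bait, at chr12:114660919-114661018, minus strand. The whole of that flank, with joins from 114654693 to 114661018, took most joins. The others are preys of trans S mu joins in B cells, at chr12:114663098-114663197 and chr12:114663874-114663973, both minus strand, the first within the repeats and the second at the edge of the span of such joins.
Bait-facing flank: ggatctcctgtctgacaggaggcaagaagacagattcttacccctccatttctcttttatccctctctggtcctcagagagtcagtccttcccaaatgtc
Trans S mu, B cells replicate 19: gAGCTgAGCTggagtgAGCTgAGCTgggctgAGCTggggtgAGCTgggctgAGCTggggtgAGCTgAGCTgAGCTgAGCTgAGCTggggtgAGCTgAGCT
Trans S mu, B cells replicate 21: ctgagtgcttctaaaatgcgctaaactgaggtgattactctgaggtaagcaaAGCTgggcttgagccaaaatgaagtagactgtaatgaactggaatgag
The flank holds no AGCT in these 100 bases, and the repeat prey holds the word throughout.

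Minus-strand joins numbered 137, 140 and 77 in B-cell replicates 19, 21 and 23, of 933, 1115 and 483 junctions in those libraries. In T-cell replicates 19, 21 and 23 they numbered 201, 447 and 71, of 1253, 2707 and 387 junctions. T-cell replicate 21 alone held 447 of the 1073 joins, so shares were compared per library with equal weight. As a share of the library they made up 14.7%, 12.6% and 15.9% in B cells, against 16.04%, 16.5% and 18.4% in T cells. The groups did not overlap, with means of 14.4% ± 1.71 in B cells and 17.0% ± 1.22 in T cells (SD, n = 3 each; two-sided exact permutation p = 0.1, adjusted over 10 tests p = 0.2). With 3 libraries against 3, 0.1 is the smallest p that this test can give, so no comparison of the cell types could pass 0.05. In a window of 5 kb on either side the difference shrank to -1.21 percentage points, against -2.57 as reported, and the groups overlapped (exact p = 0.4). They also overlapped in a window of 20 kb on either side (-2.55 points, exact p = 0.2), and without B-cell replicate 21 the difference was -1.65 points.

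Within the window, the minus strand took a smaller part of the joins in B cells than in T cells. It held 34.4%, 34.2% and 38.7% of window joins in B cells and 42.3%, 46.7% and 48.0% in T cells. The means were 35.8% ± 2.52 in B cells and 45.7% ± 2.97 in T cells (SD, n = 3 each), a difference of -9.88 percentage points without overlap (exact permutation p = 0.1, adjusted p = 0.2). Read names placed replicates 19 and 21 on one sequencing run and replicate 23 on another. The difference was -10.2 points within the first run, with 2 libraries of each cell type, and -9.28 within the second, with 1 of each, and that in the share of the library was -2.66 and -2.40 points. Plus-strand joins of the window were 28.0%, 24.1% and 25.3% of library junctions in B cells. In T cells they were 21.9%, 18.8% and 19.9%, without overlap, which was not tested. The window share thus reflects a higher plus-strand share in B cells as well as a lower minus-strand share.

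The 1073 joins fell into 6 places. The flank that faces the bait took 578 joins, 161 in B cells and 417 in T cells, from 114654693 to 114661018. The cassette up to the first cut took 191 joins, 68 in B cells and 123 in T cells. The cassette from the first cut to the loxP site took 77, 38 in B cells against 39 in T cells. The stretch from the start of the loxP site onward took 132, 48 in B cells and 84 in T cells. The flank on the far side took 75, 19 in B cells against 56 in T cells, and the trans S mu label marked 20, all in B cells. The bait-facing flank thus held 53.9% of minus-strand joins, against 8.66% of the 1513 plus-strand joins, while the far flank held 6.99% of minus-strand joins, against 32.3% of plus-strand joins. Of the joins in either flank, most on each strand lay on the side into which the prey reads. The plot of places by library shows this make-up.

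**Figure D1:**
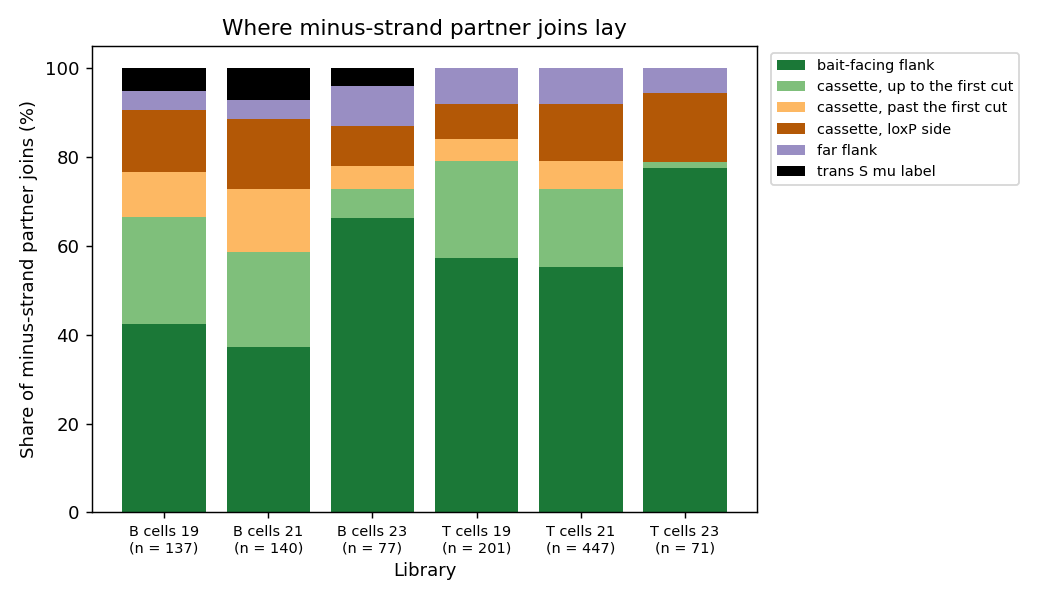
Share of minus-strand partner joins (%, vertical axis) in each of 6 places, as stacked bars for the 3 B-cell and the 3 T-cell libraries, with the number of joins under each bar. The bait-facing flank is the largest place in every library shown, the black trans S mu part is present in the 3 B-cell bars and absent from the 3 T-cell bars, and both libraries of replicate 23 have a small part up to the first cut.

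The authors' gene labels split the joins differently. No label stood on 653 joins, the label 2x cassette stood on 400 and trans Smu on 20. The cassette label was on 66, 72 and 16 joins in B-cell replicates 19, 21 and 23, and on 70, 164 and 12 in T-cell replicates 19, 21 and 23. Replicate 23 was low for this label in both cell types. On the plus strand 876 joins had the cassette label, 620 had none, 9 had trans Smu and 8 had Smu without the word trans. The last of these labels stood on no minus-strand join.

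The bait-facing end of the break, made up of its flank and the cassette up to the first cut, took 769 minus-strand joins, 229 in B cells and 540 in T cells. These are the joins that an end at the first cut would give after losing no bases or some. They made up 9.75%, 7.35% and 11.6% of library junctions in B cells, against 12.7%, 12.01% and 14.5% in T cells. The means were 9.57% ± 2.13 in B cells and 13.1% ± 1.27 in T cells (SD, n = 3 each), without overlap, a difference of -3.49 percentage points (exact permutation p = 0.1, adjusted over 8 added tests p = 0.133). The difference was -3.79 points within the run of replicates 19 and 21 and -2.88 within that of replicate 23. The 5 kb window gave -2.17 points, with overlap (exact p = 0.2).

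Joins at this end lay nearer to the cut in each of the 3 B-cell libraries than in any of the 3 T-cell libraries. Of them, 58.2%, 52.4% and 50% lay within 200 bp of the first cut in B cells, against 47.2%, 48% and 37.5% in T cells. The means were 53.6% ± 4.23 in B cells and 44.2% ± 5.84 in T cells (SD, n = 3 each; exact permutation p = 0.1, adjusted p = 0.133), with differences of 7.76 points in the run of replicates 19 and 21 and 12.5 in that of replicate 23. Without T-cell replicate 23 the difference was 5.98 points, against 9.34 with it, and the 5 kb window gave 6.53 points with overlap (exact p = 0.5). The median distance from the cut was 39, 112 and 211.5 bp in B-cell replicates 19, 21 and 23, and 253, 251 and 339.5 bp in T-cell replicates 19, 21 and 23. All 3 B-cell medians were below all 3 T-cell medians, with means of 120.8 ± 86.6 bp in B cells and 281.2 ± 50.5 bp in T cells (SD, n = 3 each; exact permutation p = 0.1, adjusted p = 0.133). Within runs the difference in median was -176.5 bp for replicates 19 and 21 and -128 bp for replicate 23. In a window of 20 kb on either side the medians differed by -133.5 bp and overlapped (exact p = 0.2).

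Joins far from the cut were a smaller share in the 3 B-cell libraries than in the 3 T-cell libraries. More than 1 kb from the cut lay 20.9%, 19.5% and 19.6% of bait-facing end joins in B cells, against 25.8%, 29.2% and 28.6% in T cells. The B-cell libraries lay close together, and all were below the lowest T-cell library. The means were 20.01% ± 0.754 in B cells and 27.9% ± 1.83 in T cells (SD, n = 3 each), a difference of -7.85 percentage points (exact permutation p = 0.1, adjusted p = 0.133), with -7.31 points in the run of replicates 19 and 21 and -8.93 in that of replicate 23. Within the lower limit of the window, the farthest such join was 5999 bp from the cut in B cells and 6346 bp in T cells, and joins continued beyond that limit. A window of 5 kb on either side left a difference of -2.14 points with overlap (exact p = 0.3), and the median then differed by -60.5 bp (exact p = 0.4). Its lower limit lies more than 3 kb closer to the cut than 5 kb along the allele. Most joins over 1 kb from the cut therefore fell outside it, so it says little about them.

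**Figure D2:**
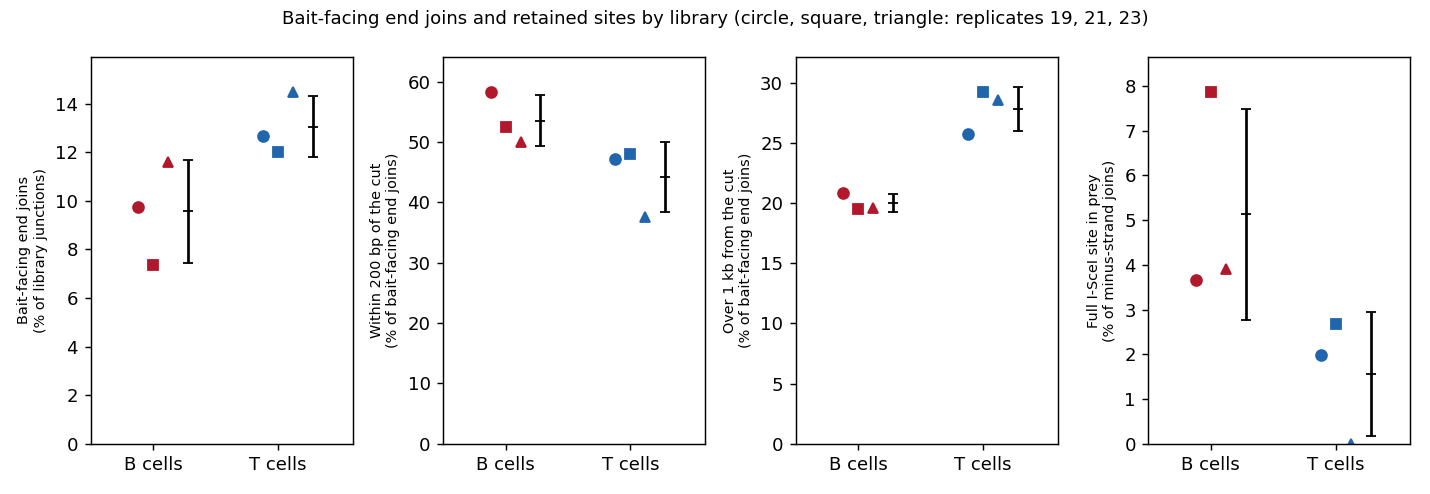
Measures by library, B cells left of T cells, with circles, squares and triangles for replicates 19, 21 and 23 and black bars for the mean ± SD. From left to right, they are bait-facing end joins as % of library junctions, the % of those within 200 bp of the first cut, the % of those over 1 kb from it, and the % of all minus-strand joins whose prey holds a full I-SceI site; in each of these panels the 3 B-cell points and the 3 T-cell points do not overlap.

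The steps of distance pool the libraries, with 229 joins in B cells and 540 in T cells. Of these, 76 in B cells and 132 in T cells lay 0 to 21 bp from the cut. Another 26 in B cells, against 62 in T cells, lay 22 to 50 bp away, and 22 in B cells, against 58 in T cells, lay 51 to 200 bp away. From 201 to 500 bp there were 29 in B cells, against 64 in T cells, and from 501 to 1000 bp 30 in B cells and 72 in T cells. From 1001 to 2000 bp there were 23 in B cells, against 90 in T cells, and from 2001 to 5000 bp 22 in B cells and 56 in T cells. Of the 90, 63 came from T-cell replicate 21, against 19 and 8 from T-cell replicates 19 and 23. Beyond 5 kb only 1 join was seen in B cells and 6 in T cells. Every step held joins of both cell types, and the curves of distance show the same values per library.

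**Figure D3:**
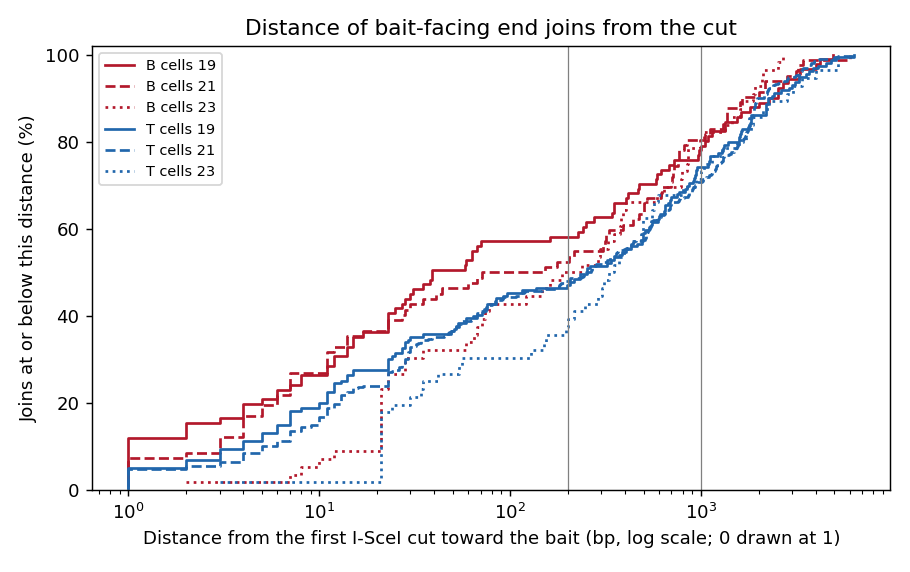
Percent of bait-facing end joins at or below a distance from the first I-SceI cut (bp, log axis), one curve per library, B cells in red and T cells in blue, with grey lines at 200 and 1000 bp. At 1000 bp the B-cell curves lie above the T-cell curves, and the curves of replicate 23 step up at the edge of the flank.

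The 5 positions with the most joins, libraries weighted equally, were 114661018, 114664648, 114661016, 114664493 and 114664492. At the first cut itself, 114664493, there were 22 joins, 7, 2 and 0 in B cells and 4, 9 and 0 in T cells, in the order of replicates 19, 21 and 23. The base before it, 114664492, had 19 joins, 4, 4 and 0 in B cells and 4, 7 and 0 in T cells. The flank base 114661016 had 22 joins, 4, 2 and 2 in B cells and 4, 10 and 0 in T cells. The position 114664648, beyond the loxP site, had 25 joins, 7, 5 and 2 in B cells, against 3, 2 and 6 in T cells.

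Position 114661018, the last base of the flank, had 17 joins, and all of them came from replicate 23, with 8 in B cells and 9 in T cells. The reads of 8 of these 8 B-cell joins and of 7 of the 9 T-cell joins ran on from the flank into cassette sequence by at least 6 bases. The other libraries gave such reads a position in the cassette. Replicate 23 had 5 joins in B cells and 1 in T cells placed in the cassette up to the first cut, against 33 and 30 in B-cell replicates 19 and 21 and 44 and 78 in T-cell replicates 19 and 21. The flank and the cassette up to the cut were therefore counted together in the comparisons of distance, and the distances of these 17 joins are too long. In 1 of the 8 B-cell joins and 1 of the 9 T-cell joins the read matched more than 21 cassette bases, so that it reached past the first cut. Without the 17 joins, an alternative added after seeing the data, the share over 1 kb differed by -8.58 points without overlap (exact p = 0.1), while the groups overlapped in the share within 200 bp (10.5 points, exact p = 0.4) and in the median (-166.3 bp, exact p = 0.3).

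**Figure D4:**
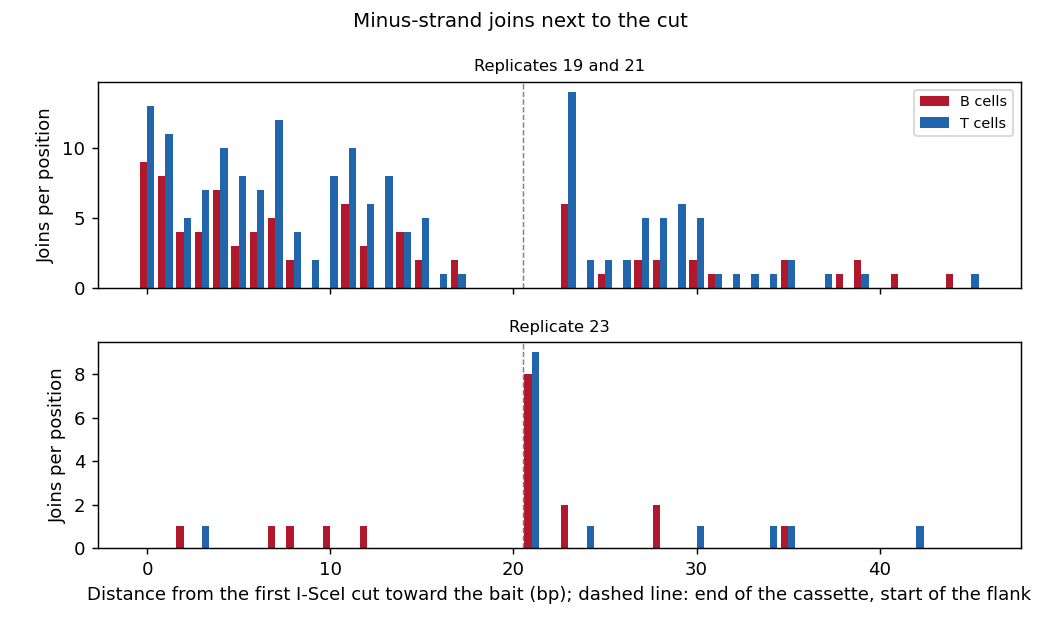
Number of minus-strand joins per position (vertical axis) against distance from the first I-SceI cut toward the bait (bp), B cells in red and T cells in blue, replicates 19 and 21 in the upper panel and replicate 23 in the lower one. In replicate 23 the joins stack on the first flank base beyond the dashed line, with 8 in B cells and 9 in T cells, while replicates 19 and 21 have none there and spread over the cassette.

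A rule set on the file's numbers, which took as the break end the position with the most joins on each strand, gave a different picture. It put the minus-strand end at 114661018, on the joins of replicate 23, and the plus-strand end at 114664586. By this rule 14.6%, 10.7% and 29.9% of minus-strand joins in B cells and 16.4%, 17.9% and 31.0% in T cells lay within 200 bp of their end (18.4% ± 10.1 in B cells and 21.8% ± 8.02 in T cells, SD, n = 3 each; exact permutation p = 0.5, adjusted p = 0.714). The remaining joins had a median distance of 3471, 3471 and 2222 bp in B cells and 3464, 3465 and 1857 bp in T cells, because cassette joins are numbered more than 3 kb above the flank (exact permutation p = 0.5). The share near the end was 20.1% ± 8.38 on the minus strand and 61.5% ± 5.42 on the plus strand (SD, n = 6 libraries), lower on the minus strand in 6 of 6 libraries (two-sided exact sign-flip permutation p = 0.031, adjusted over 5 tests p = 0.156). This difference of -41.4 percentage points depended on the distance chosen: within 50 bp of the end it was -0.0394 points (exact p = 1). Without replicate 23 of T cells it was -19.3 points, without replicate 23 of B cells -22.2, and with each position and strand counted once -23.4. In these settings the rule was applied again to the joins kept, and the minus-strand end no longer fell at 114661018. They therefore do not show how much of the -41.4 points the joins left out carried. Measured along the cassette allele, the strands differed by -5.75 percentage points in place of -41.4 (exact p = 0.156), and B cells had 11.4 percentage points more than T cells in place of -3.37 (exact p = 0.2).

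Joins past the first cut kept more cassette sequence than an end cut at the first site would hold. There were 14, 20 and 4 in B-cell replicates 19, 21 and 23, and 10, 29 and 0 in T-cell replicates 19, 21 and 23. Of the 77, 42 lay before the second cut. In 32 of the 77 the prey held a full I-SceI recognition site. Over all minus-strand joins, a full site was kept in 3.65%, 7.86% and 3.90% in B cells, against 1.99%, 2.69% and 0% in T cells, from 5, 11 and 3 joins in B cells and 4, 12 and 0 in T cells. The means were 5.13% ± 2.36 in B cells and 1.56% ± 1.39 in T cells (SD, n = 3 each), without overlap (exact permutation p = 0.1, adjusted p = 0.2), and they differed by 3.42 points in the run of replicates 19 and 21 and by 3.90 in that of replicate 23. Without B-cell replicate 21 the difference was 2.21 points, against 3.58 with it. On the plus strand the full site was also more frequent in B cells, at 20.3%, 24.2% and 22.1%, against 10.6%, 9.61% and 5.19% in T cells, which was not tested.

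The 132 joins on the loxP side lay from 114664594 to 114664690. They were 19, 22 and 7 in B cells and 16, 57 and 11 in T cells, 12.9% ± 3.42 of minus-strand joins in B cells and 12.1% ± 3.81 in T cells (SD, n = 3 each; exact permutation p = 0.7). The difference had opposite signs in the runs, 4.44 points for replicates 19 and 21 and -6.40 for replicate 23. In 85 of them the aligned prey ended at one base, 114664580. Of the 79 loxP-side reads with 20 or more bases left beyond the aligned prey, 63 went on into the bait region, and 62 of those entered it at the bait peak, 114577038, on the plus strand. In every other place the reads that did so numbered 0 to 2. The sequence of that entry is shown because a join assigned to S mu by its prey continues in it: it covers chr12:114577038-114577097, mm9, plus strand.
Bait-region continuation: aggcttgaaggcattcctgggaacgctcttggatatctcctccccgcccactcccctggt
Such reads run from the bait through a short piece of cassette back to the bait region, so their partner coordinate alone does not place their other end at S mu. With the loxP-side joins of the minus strand left out, it held 32.7% ± 3.28 of window joins in B cells and 42.5% ± 1.90 in T cells (SD, n = 3 each), a difference of -9.78 percentage points without overlap (exact permutation p = 0.1, adjusted p = 0.133).

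The 75 joins in the far flank lay 198 to 8105 bp from the cut, with a median of 943 bp. There were 6, 6 and 7 in B cells and 16, 36 and 4 in T cells. Their preys begin beyond the cassette and read toward it. They made up 5.92% ± 2.75 of minus-strand joins in B cells and 7.22% ± 1.37 in T cells (SD, n = 3 each; exact permutation p = 0.4). The libraries overlapped, and the difference was -3.67 points in the run of replicates 19 and 21 and 3.46 in that of replicate 23.

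Trans S mu joins were seen in the 3 B-cell libraries and in none of the 3 T-cell libraries. They were 7 of 137 joins in B-cell replicate 19 (5.11%, Wilson 95% interval 2.50% to 10.2%), 10 of 140 in replicate 21 (7.14%, 3.93% to 12.7%) and 3 of 77 in replicate 23 (3.90%, 1.33% to 10.8%). In T cells there were 0 of 201, 0 of 447 and 0 of 71 in replicates 19, 21 and 23, which allows shares of up to 1.49%, 0.671% and 4.22%. The limit of T-cell replicate 23 lies above the 3.90% of B-cell replicate 23, so those libraries cannot be told apart at this depth. Over the 719 T-cell joins together the limit is 0.417%. The intervals and limits cover counting error only. The B-cell mean was 5.38% ± 1.64 (SD, n = 3), with 0% in each of 3 T-cell libraries (exact permutation p = 0.1, adjusted p = 0.2). On the plus strand the same label stood on 9 joins in B cells, 3 in each library, and on 0 in T cells. The plus-strand label Smu without the word trans stood on 4, 1 and 0 joins in B cells and on 1, 1 and 1 in T cells.

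The 20 joins spread from 114662733 to 114663973, over 1241 bp, and the nearest was 1715 bp above the last base of the bait-facing flank. AGCT, which is its own reverse complement so that both strands are covered, stood in the first 50 prey bases of 17 of the 20 (85%). The same word stood in 20.49% of the 283 preys on other chromosomes in these libraries, in 9.86% of the 578 bait-facing flank preys, in 26.7% of the 75 far-flank preys and in 0 of the 191 preys in the cassette up to the first cut. AGCT is frequent throughout the S mu repeats that the authors' label marks, so the high share in trans joins describes where they lay. Among joins away from the modal end AGCT stood in 13.5% in B cells and 12.3% in T cells on average (exact permutation p = 0.7).

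B cells that carried cassettes at c-myc on chromosome 15, with the genotype c-myc25-2xI, give the same window of chromosome 12 without the IgH cassettes. They had 12, 34 and 14 minus-strand joins there in replicates 14, 36 and 37, of which 11, 31 and 13 were labelled S mu. Of these 55, 43 (78.2%) lay inside the span of the IgH trans joins and 47 (85.5%) had AGCT. Their median lay 2506 bp above the flank edge, against 2285 bp for the 20 trans joins of the IgH libraries. Only 2 of the 60 lay at or below that edge.

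**Figure D5:**
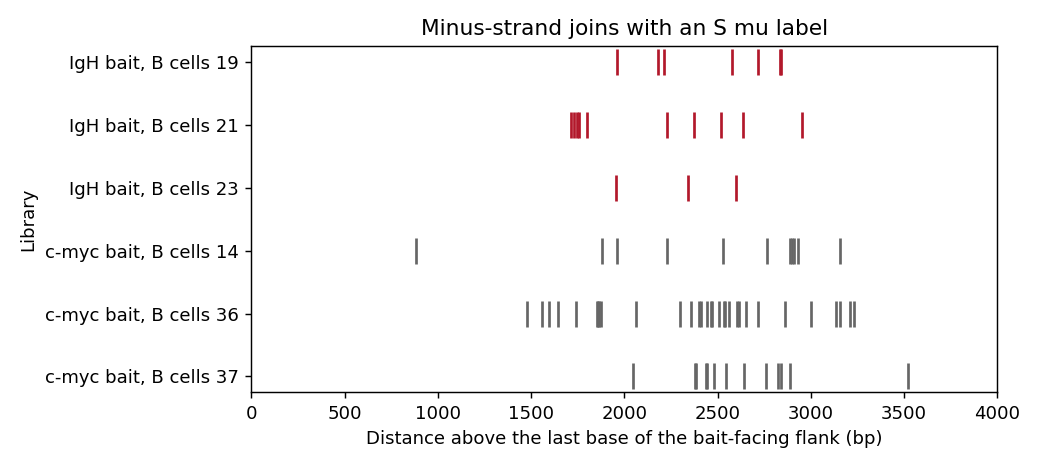
Positions of minus-strand joins with an S mu label, as distance (bp) above the last base of the bait-facing flank, one line of marks per library, with IgH-bait B cells in red above c-myc-bait B cells in grey. The 20 IgH joins lie 1715 to 2955 bp above the flank edge and the 55 c-myc joins 884 to 3520 bp above it.

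The bases at the join were read for 1043 of the 1073 joins by laying the bait and prey parts of each read side by side. In 537 of them bait and prey shared at least 1 base, and in 84 they met without shared or extra bases. In 422 the read held bases between them that were assigned to neither part, counted here as inserted. Prey bases that the alignment left out can be among them. At the last flank base, with joins of replicate 23 only, reads held 7 to 30 such cassette bases in B cells. In T cells they held 4 to 32. The shares of replicate 23 and of the bait-facing flank carry this limit. The median was 2 shared bases and 11 inserted bases. A shared base can also arise by a chance match, which was not subtracted.

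Shared bases were found at 53.7%, 48.2% and 58.7% of joins in B cells and 56.3%, 48.6% and 50% in T cells, with overlap (exact permutation p = 0.7). Insertions were found at 38.8%, 46.8% and 34.7% in B cells and 35.5%, 42.1% and 41.4% in T cells, again with overlap (exact permutation p = 1). Within runs these differences changed sign, with -1.51 points for shared bases and 3.99 for insertions in replicates 19 and 21, and with 8.67 for shared bases and -6.76 for insertions in replicate 23. Blunt joins were a smaller share in the 3 B-cell libraries, at 7.46%, 5.04% and 6.67%, against 8.12%, 9.35% and 8.57% in T cells. Their means were 6.39% ± 1.24 in B cells and 8.68% ± 0.619 in T cells (SD, n = 3 each; exact permutation p = 0.1, adjusted p = 0.2). Counting each position and strand once, the difference in blunt joins was -1.24 percentage points in place of -2.29, with overlap (exact p = 0.5).

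Structure was also counted by place. In the bait-facing flank 61.4% of 158 joins had shared bases in B cells, against 54.2% of 402 in T cells, and 32.3% had insertions in B cells, against 38.6% in T cells. In the cassette up to the first cut 57.4% of 68 had shared bases in B cells, against 47.5% of 118 in T cells. Insertions stood at 57.9% of the 38 joins past the first cut in B cells, against 50% of the 38 in T cells, with medians of 19.5 inserted bases in B cells and 19 in T cells. On the loxP side they stood at 71.7% of 46 in B cells, against 57.3% of 82 in T cells, with medians of 32 bases in B cells and 24 in T cells. These shares pool the joins of all libraries of a cell type, so larger libraries weigh more. T-cell replicate 21 held 247 of the 417 T-cell joins in the bait-facing flank. They were not compared per library and were not tested between places or cell types.

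Between the strands, shared bases stood at 52.6% of minus-strand and 47.6% of plus-strand joins on average over 6 libraries (exact sign-flip permutation p = 0.0938, adjusted p = 0.156), and insertions at 39.9% of minus-strand and 39.0% of plus-strand joins (exact p = 0.469). Blunt joins ranged from 5.04% to 9.35% over the minus strand of the 6 libraries and from 10.4% to 18.6% over the plus strand, which was not tested. With loxP-side joins left out on the minus strand alone, shared bases were 8.01 percentage points more frequent on the minus strand (exact p = 0.031) and insertions 2.97 points less frequent (exact p = 0.031), each with an adjusted p of 0.0521.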

How the data were processed

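Junction tables of 13 HTGTS libraries were used. The authors deposited 1 line per junction, with position, strand, aligned blocks, read and gene label, and an alignment score, per the file headers. The build was mm9, per the submitters' processing notes, and the sources used here do not give the aligner or its filters. Positions of plus-strand junctions, deposited as 0-based starts, were raised by 1 so that all are 1-based. The alignment score was not used as a measurement. Libraries held 387 to 2707 junctions, counted as deposited.

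Python 3.11.15, pandas 2.3.3 and scipy 1.17.1 were used. Cassette landmarks were read from the aligned blocks, and AGCT was searched in the first 50 prey bases. The bait part of a read was matched to a consensus of 112 bases with up to 2 mismatches, and the step was tested on simulated data. Read continuation used words of 16 bases.

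Cell types were compared on library means by exact two-sided permutation and strands by exact sign-flip permutation over 6 libraries, with Benjamini-Hochberg adjustment. Same-numbered libraries shared a run, and their deviations in the 6 places correlated at 0.852, 0.953 and 0.899. Replicate 23 stood apart in both cell types, with 66.2% in B cells and 77.5% in T cells in the bait-facing flank. Replicates 19 and 21 had 42.3% and 37.1% in B cells, and 57.2% and 55.3% in T cells. One outlying replicate in each cell type gives high correlations, so they do not show whether the numbers pair replicates 19 and 21. Named labels were all labels present, and named positions the 5 with the most joins. The members, lists and tests were chosen with earlier results of these data known. The 8 added tests, on bait-facing end joins, loxP-side, trans S mu and far-flank shares and the window without loxP-side joins, were chosen after seeing the data.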

Additional observations from a re-analysis of the deposited data

Results flagged for a closer look

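Libraries outside the comparison of IgH B and T cells also held minus-strand joins in this window. The c-myc B-cell libraries had 60 of them among 6646 junctions (0.903%), and the c-myc fibroblast libraries had 0 on either strand among 2931, a count that leaves room for a share of at most 0.102%. These groups differ in genotype as well as in cell type and activation, which cannot be told apart.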

How the results depend on the processing

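Of 262 alternative values over 23 results, 236 kept their sign and 26 turned round, and no adjusted p passed 0.05 in any setting. Keeping the sign does not mean keeping the size: with 50 bp as the near-end distance, the strand difference was -0.0394 for the near-end share, against -41.4, and -20.9 for AGCT (exact p = 0.031), against -2.59. Treating the replicate numbers as a block gives an exact p of at least 0.25 with 3 pairs, as for the minus-strand share of the window (-9.88 percentage points), so neither this fit nor the unpaired one could make a call between cell types. Counting each position and strand once turned the difference in insertions to -0.753 (B minus T) and -2.17 (minus less plus strand) and that in AGCT to 1.16 (minus less plus strand). In a window of 5 kb on either side, shared bases turned to -1.07 and loxP-side joins to -0.182. With 1000 bp as the near-end distance the median differed by -40.5 bp. With distance from the cut of the cassette allele, the B minus T difference turned to 11.4 for the near-end share, -96.5 bp for the median and -2.35 for AGCT, and the strand difference to -242.3 bp for the median and 2.66 for AGCT. Without loxP-side joins, insertions turned to -0.749 (B minus T) and -2.97 (minus less plus strand). Leaving out each library in turn gave ranges that crossed 0 for 6 differences between B and T cells: -6.05 to 18.9 for the near-end share, -280 to 394.2 bp for its median, -0.681 to 4.55 for shared bases, -2.94 to 3.11 for insertions, -0.626 to 8.80 for AGCT and -1.23 to 2.72 for loxP-side joins. The values 18.9, -280 bp and 8.80 came from leaving out a replicate 23 library, which moved the minus-strand end off 114661018. They are therefore not the same measure with a library removed. Counting each position and strand once moved that end too. The bait-facing end differences kept their sign, with -4.50 to -2.38 for the share of the library, 5.98 to 11.2 for joins within 200 bp, -205.7 to -119.4 bp for the median and -8.89 to -7.17 for joins over 1 kb. So did the share of the library, with -3.35 to -1.65, and the full-site share, with 2.21 to 4.32. The causes of these changes were not tested. With 71 to 447 joins per library, and 0 to 10 of them in trans S mu, small classes carry wide counting intervals.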
